A study of Mus musculus with 2 samples.

Results

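The mitochondrial genome of the mouse carries 37 genes, and all of them were looked up in RNA sequencing of whole fetal liver. Members were the gene rows whose identifiers lie on chromosome M in the GENCODE M21 annotation of the mouse assembly GRCm38, which gave 37 of the 43346 genes in the deposited tables. They comprise 13 protein-coding genes, 2 ribosomal RNA genes and 22 transfer RNA genes. The tissue was liver of B6NCrl mouse embryos at embryonic day 15.5, with both sexes pooled. Replicate 1 held 78 embryos and replicate 2 held 62 embryos, and each of the 2 libraries was made from 10 ng of RNA longer than 200 nt with synthetic spike-ins added. Both belong to a single group, and the design has no treated, mutant or control group. The comparisons are therefore among the mitochondrial genes, against their nuclear copies and partners, and of replicate 2 against replicate 1.

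Mitochondria keep a small circular genome that is copied and transcribed inside the organelle. Both of its strands are transcribed as long precursors, and most of the genes stand on the strand whose transcripts are called heavy-strand transcripts here. Transfer RNAs lie between many of the coding genes and are cut out of the precursor by RNase P and the enzyme Elac2, which releases the messenger and ribosomal RNAs. The messenger RNAs then receive short poly(A) tails, which in some of them complete the stop codon. The proteins they encode are the hydrophobic core subunits of respiratory complexes I, III and IV and of the ATP synthase, complex V, and every other subunit is made from nuclear genes. Fetal liver is a tissue of hepatocytes and of maturing red cells, which lose their mitochondria late in maturation.

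Depth was 34039426 expected counts in replicate 1 and 44200838 in replicate 2, without spike-ins. Each of the 7 hepatocyte markers and each of the 7 erythroid markers examined stood above 10 TPM (a level corrected for length and library size, computed here without the spike-ins) in both libraries. The libraries differed by more than sampling noise, with a chi-square per degree of freedom of 20.0 over 15515 genes. Marker sums also differed: the hepatocyte sum was 45416 TPM in replicate 1 and 37269.9 TPM in replicate 2, and the sum of 7 cardiac and skeletal muscle markers, of which 3 stood above 10 TPM, was 187 and 286 TPM. The erythroid sum was 153074 and 156189 TPM, and the sums of 3 markers each were 9.82 and 1.98 TPM for exocrine pancreas, 7.44 and 8.69 TPM for gut, and 0.0207 and 0.0103 TPM for kidney. Their part in the differences between the libraries described below was not tested. In bulk liver, fewer cells of a type and less RNA per cell cannot be told apart.

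Most of the genes are packed with little or no room between them, and this bears on how reads were assigned. Of the 36 pairs of neighbouring genes, 34 overlapped or lay at most 3 nt apart and 9 overlapped. A transfer RNA gene directly adjoined 14 of the 15 messenger and ribosomal RNA genes. The longest overlap joins mt-Atp8 and mt-Atp6, which encode the small membrane subunit 8 and the proton channel subunit a of complex V. It is 43 nt long and is shown with its flanks on the plus strand of chromosome M, GRCm38, with the shared bases in capitals:

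mt-Atp8 and mt-Atp6, chrM:7915-7981: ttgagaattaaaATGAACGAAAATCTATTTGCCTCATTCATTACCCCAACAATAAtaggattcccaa

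The shared stretch opens with the start codon of mt-Atp6 and closes with the stop codon of mt-Atp8. The mt-Nd4l and mt-Nd4 genes, both for membrane subunits of complex I, share 7 nt, again in capitals:

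mt-Nd4l and mt-Nd4, chrM:10149-10191: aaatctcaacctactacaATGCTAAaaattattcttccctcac

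Between mt-Atp6 and mt-Co3 the last base of the upstream stop codon is also the first base of the downstream start codon, shown here in capitals:

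mt-Atp6 and mt-Co3, chrM:8589-8624: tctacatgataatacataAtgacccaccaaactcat

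Of the 13 coding genes, 10 end in a complete stop codon. The other 3, mt-Co3, mt-Nd4 and mt-Cytb, end in a single T after the last codon. The ends of 2 of them are shown because the stop codon is not in the gene itself, with that last base in capitals:

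mt-Nd4 end, chrM:11515-11544: gtccaaaactaattacaggcctgacaataT

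mt-Cytb end, chrM:15259-15288: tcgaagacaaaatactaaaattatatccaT

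All 22 transfer RNA genes, 14 on the plus strand and 8 on the minus strand, were at 0 expected counts in both libraries. They are 59 to 75 nt long, and the deposited tables give each of them an effective length of 0. Elsewhere the effective length of a single-transcript gene was mostly its length minus 99, the value for reads of 100 nt, so no such read fits inside a transfer RNA gene. Among all genes and other entries of the tables, 28403 had an effective length of 0 and none of these had a count. The longest and the shortest of the transfer RNAs show how far each stays below 100 nt:

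mt-Tl1, leucine transfer RNA, chrM:2676-2750, plus strand: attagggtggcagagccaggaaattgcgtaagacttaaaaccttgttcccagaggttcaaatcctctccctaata

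mt-Ts2, serine transfer RNA, chrM:11613-11671, plus strand: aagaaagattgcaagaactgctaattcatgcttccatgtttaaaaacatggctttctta

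A count of 0 would allow up to 8.81e-06% of counts in replicate 1 and 6.79e-06% in replicate 2, taken as 3 counts of the total. That limit does not apply to transfer RNAs here, because they could not be counted at all, and RNA of 200 nt or less was not part of the libraries.

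The remaining 15 genes reached 1 TPM in each library and were counted as detected. Together the 37 genes held 1.88% of TPM in replicate 1 and 2.13% in replicate 2, a mean of 2.01% ± 0.176 (SD, n = 2). By counts the share was 1.42% (exact Clopper-Pearson 95% interval 1.41% to 1.42%) in replicate 1 and 1.65% (1.64% to 1.65%) in replicate 2. These intervals cover counting error only, since PCR copies are not independent molecules. Messenger RNAs held 1.66% ± 0.124 of TPM and ribosomal RNAs 0.343% ± 0.0526 (SD, n = 2). The 353 annotated nuclear ribosomal RNA genes had 13 counts in all in replicate 1 and 8.99 in replicate 2. Nearly all counts on annotated ribosomal RNA genes were thus mitochondrial. These rows cannot show how much nuclear ribosomal RNA the tissue or the libraries held, since RNA of 200 nt or less was left out and unannotated repeats have no row. Whether ribosomal RNA was removed during library making is not given in the sources used here.

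Of the ribosomal RNA genes, mt-Rnr2 (ENSMUSG00000064339; chrM:1094-2675, plus strand) encodes the RNA of the large ribosomal subunit and mt-Rnr1 (ENSMUSG00000064337; chrM:70-1024, plus strand) that of the small subunit. The level of mt-Rnr2 was 2447 TPM in replicate 1 and 3074 TPM in replicate 2 (mean 2761 ± 444; SD, n = 2), from 113034 and 191427 counts. That of mt-Rnr1 was 609 and 726 TPM (mean 668 ± 82.5), from 16247 and 26095 counts. A ribosome is known to hold both RNAs in equal number. The level of mt-Rnr2 was 4.02 times mt-Rnr1 in replicate 1 and 4.23 times in replicate 2. This ratio is one of TPM levels and is already corrected for the lengths of 1582 and 955 nt. Relative to the sum of the 13 messenger RNAs, the ribosomal RNAs together stood at 0.194 and 0.217.

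**Figure D1:**
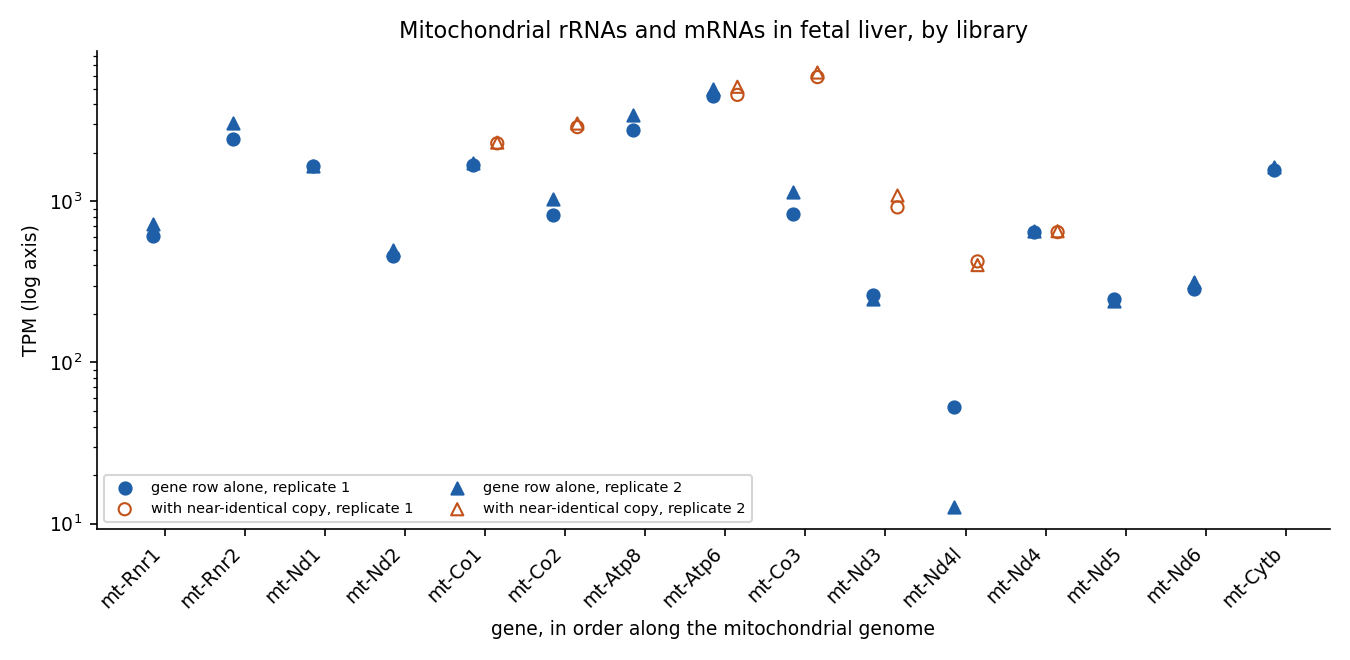
TPM (log axis) of the 2 ribosomal and 13 messenger RNA genes in order along the mitochondrial genome, with circles for replicate 1 and triangles for replicate 2, filled for the gene's own row and open after the counts of its near-identical nuclear copy were added. The own rows run from 12.6 TPM for mt-Nd4l in replicate 2 to 4965 TPM for mt-Atp6 in replicate 2, and mt-Co2, mt-Co3, mt-Nd3 and mt-Nd4l sit far higher with the copy added.

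Complex V genes had the highest deposited levels. The row of mt-Atp6 (ENSMUSG00000064357; chrM:7927-8607, plus strand, as are the genes below except mt-Nd6) stood at 4490.0 TPM in replicate 1 and 4965 TPM in replicate 2 (mean 4728 ± 336; SD, n = 2), and was the 17th and 15th highest of all genes in the tissue. The row of mt-Atp8 (ENSMUSG00000064356; chrM:7766-7969) stood at 2759.7 and 3411 TPM (mean 3085 ± 461). At 204 nt mt-Atp8 is the shortest messenger RNA gene measured, and an effective length of 105 nt makes its TPM depend strongly on that correction. Its ratio to mt-Atp6 was 0.615 and 0.687 in TPM but 0.392 ± 0.0308 (SD, n = 2) when counts were divided by the full length instead. The 2 genes are known to share a messenger RNA.

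Complex IV, cytochrome c oxidase, takes its 3 catalytic core subunits from mt-Co1, mt-Co2 and mt-Co3. The mt-Co1 row (ENSMUSG00000064351; chrM:5328-6872) stood at 1688 and 1717 TPM in replicates 1 and 2 (mean 1702 ± 20.0; SD, n = 2). The mt-Co2 row (ENSMUSG00000064354; chrM:7013-7696) stood at 826 and 1029 TPM (mean 928 ± 143), and the mt-Co3 row (ENSMUSG00000064358; chrM:8607-9390) at 837 and 1143 TPM (mean 990.2 ± 216). The ranges of mt-Co2 and mt-Co3 overlap, while both lay below mt-Co1 in each library by this TPM. By the posterior mean TPM, a second deposited estimate, mt-Co3 lay above mt-Co1, at 2057 and 2308 TPM against 1658 and 1694 TPM. By that estimate mt-Co2 stayed below mt-Co1, at 1440 and 1464 TPM. Complex III has a single mitochondrial subunit, cytochrome b from mt-Cytb (ENSMUSG00000064370; chrM:14145-15288), at 1559.9 and 1625 TPM (mean 1593 ± 46.2).

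Complex I, the NADH dehydrogenase, takes 7 subunits from the mitochondrial genome, and their rows spread most widely. The highest was mt-Nd1 (ENSMUSG00000064341; chrM:2751-3707), the first coding gene after the ribosomal RNAs, at 1655 and 1658 TPM (mean 1656 ± 1.87; SD, n = 2). Then came mt-Nd4 (chrM:10167-11544) at 643 and 652 TPM (mean 647 ± 5.88) and mt-Nd2 (chrM:3914-4951) at 458 and 496 TPM (mean 477 ± 27.1). The proton-pumping subunits encoded by mt-Nd2, mt-Nd4 and mt-Nd5 are related to each other, and mt-Nd5 (chrM:11742-13565) was the lowest of them at 247 and 241 TPM (mean 244 ± 4.16). The short gene mt-Nd3 (chrM:9459-9806) stood close to it at 262 and 248 TPM (mean 255 ± 9.93). The row of mt-Nd4l (chrM:9877-10173) was last of all 15 at 52.6 TPM in replicate 1 and 12.6 TPM in replicate 2 (mean 32.6 ± 28.3).

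The only messenger RNA from the opposite strand is mt-Nd6 (ENSMUSG00000064368; chrM:13552-14070, minus strand), also a subunit of complex I. It stood at 286 and 316 TPM (mean 301 ± 20.7; SD, n = 2), and the median of the 12 heavy-strand messenger RNAs was 2.90 and 3.44 times as high. Its strand also has another composition, with 28.1% G against 5.88% to 16.1% in the other 12, as its first 60 bases show, start codon in capitals:

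mt-Nd6, chrM:14011-14070, minus strand: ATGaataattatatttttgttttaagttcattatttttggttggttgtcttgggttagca

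The end of mt-Nd6 overlaps the end of mt-Nd5 by 14 nt, and precursor RNA of the opposite strand runs through the whole gene. The strand used in counting is not given in the sources used here, so counts from mt-Nd6 and from RNA antisense to it cannot be told apart.

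In the order of deposited levels, 3 neighbouring pairs had overlapping ranges over the libraries and so did not differ beyond their spread: mt-Atp8 and mt-Rnr2, mt-Co3 and mt-Co2, and mt-Rnr1 and mt-Nd4. With 2 libraries a gap between neighbours says only that the ranges did not meet. Across the 12 heavy-strand messenger RNAs, Spearman's rho of TPM was -0.41 with the start position in each library and -0.098 with length. With the nuclear copies described below added, rho was -0.38 and -0.37 with the start position and -0.32 and -0.35 with length. These are descriptions of 12 genes that share libraries and precursor, without a test.

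The deposited rows do not hold all the reads that match these genes. A sequence search of the annotated transcripts found 7 nuclear pseudogenes that match a mitochondrial gene at 99% identity or more over at least 100 nt, a limit chosen after the values were seen. All 7 lie on the minus strand of chromosome 1, and on it they keep the order of the genes from mt-Co1 to mt-Nd4. They are Gm29216 (matching the last part of mt-Co1), Gm28661 (mt-Co2), Gm10925 (mt-Atp6), Gm28437 (mt-Co3), Gm28438 (mt-Nd3), Gm10222 (mt-Nd4l) and Gm28439 (the first part of mt-Nd4). The matches span 4654 nt of chromosome 1 (chr1:24611535-24616188, GRCm38) and 4653 nt of the mitochondrial genome (chrM:6390-11042). The spacing was the same for the first 5 of the genes and shifted by 1 nt for mt-Nd4l and mt-Nd4. Within these bounds also lie mt-Atp8, for which no near-identical annotated copy was found, and transfer RNA genes, which are shorter than the 100 nt required.

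Of the 7 copies, 5 had no mismatch with their gene and 2 had a single substitution within the match. Against Gm28438, mt-Nd3 has T3C, counted from 1 at the 5′ end of the mitochondrial gene with the mitochondrial base first. The pair is shown because this base in capitals is the only mismatch over 345 nt:

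mt-Nd3, chrM:9459-9518, plus strand: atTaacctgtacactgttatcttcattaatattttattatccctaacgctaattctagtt

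Gm28438, chr1:24613060-24613119, minus strand: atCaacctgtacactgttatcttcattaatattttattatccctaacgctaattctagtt

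The match of mt-Co1 and Gm29216 covers 483 nt and holds A1066T, counted in the same way, shown in capitals close to where the match begins:

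mt-Co1, chrM:6390-6449, plus strand: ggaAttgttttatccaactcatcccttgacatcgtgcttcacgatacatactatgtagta

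Gm29216, chr1:24616129-24616188, minus strand: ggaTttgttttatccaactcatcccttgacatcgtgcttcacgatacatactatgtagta

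The copies of mt-Co3 and mt-Atp6 differ from the genes only in where the annotation ends them. The capitals below are bases that the mitochondrial gene has and the annotated copy lacks:

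mt-Co3 end, chrM:9361-9390: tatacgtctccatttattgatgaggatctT

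Gm28437 end, chr1:24613189-24613217, minus strand: tatacgtctccatttattgatgaggatct

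mt-Atp6 end, chrM:8578-8607: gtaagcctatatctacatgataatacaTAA

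Gm10925 end, chr1:24613974-24614000, minus strand: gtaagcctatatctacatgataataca

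A read of 100 nt can therefore start at 685 places in mt-Co3, and at 684 of these it is identical to Gm28437. The same held for 579 of 582 places in mt-Atp6, 582 of 585 in mt-Co2, 195 of 198 in mt-Nd4l and 243 of 249 in mt-Nd3. In the partly matched genes it held for 777 of 1279 places in mt-Nd4 and 380 of 1446 in mt-Co1. Reads from such places cannot be told apart by sequence, and the deposited counts divide them by the authors' estimate.

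That division differed widely between genes, also among the 5 with at most 6 read positions of their own. Gm28437 was given 107692 counts in replicate 1 and 147909 in replicate 2, which is 85.8% and 81.8% of the counts of mt-Co3 and its copy together. Gm10222 was given 87.6% and 96.9% of the counts shared with mt-Nd4l, Gm28438 71.4% and 77.2% of those with mt-Nd3, and Gm28661 71.3% and 66.1% of those with mt-Co2. By contrast Gm10925 was given 1.67% and 3.16% of the counts of the mt-Atp6 pair. Gm28439 was given 2.74 and 2.85 counts, 0.0107% and 0.00815% of those of the mt-Nd4 pair, where mt-Nd4 has 502 read positions of its own. Gm28439 has no read position of its own, and neither have Gm28437, Gm10222, Gm28661 and Gm10925.

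Gm29216 was given 26944.5 and 35988 counts, 26.2% and 25.7% of the mt-Co1 pair. This is close to the 26.3% of read positions in mt-Co1 that are shared with the copy. Counts of the mt-Co1 row were 71.3 and 97.8 per position over its 1066 own positions alone. Gene and copy together had 71.2 and 97.0 per position over all 1446. The mt-Co1 row thus held about as many counts as its unshared part alone would give. Summed over the 7 copies, the pseudogenes held 10437 TPM in replicate 1 and 10752 TPM in replicate 2, 1.06% ± 0.0222 of all TPM (SD, n = 2). They took 27.3% and 25.5% of the counts of mitochondrial genes and copies together.

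More diverged nuclear copies held almost nothing. The tables list 16 of them, with at most 97.6% identity, and 11 of these had 0 counts in both libraries. The highest was Gm13340 on chromosome 2, which matches mt-Co1 over 1545 nt at 97.6% identity and had 29.7 and 40.7 counts. The cause of the counts on the chromosome 1 copies was not tested.

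**Figure D2:**
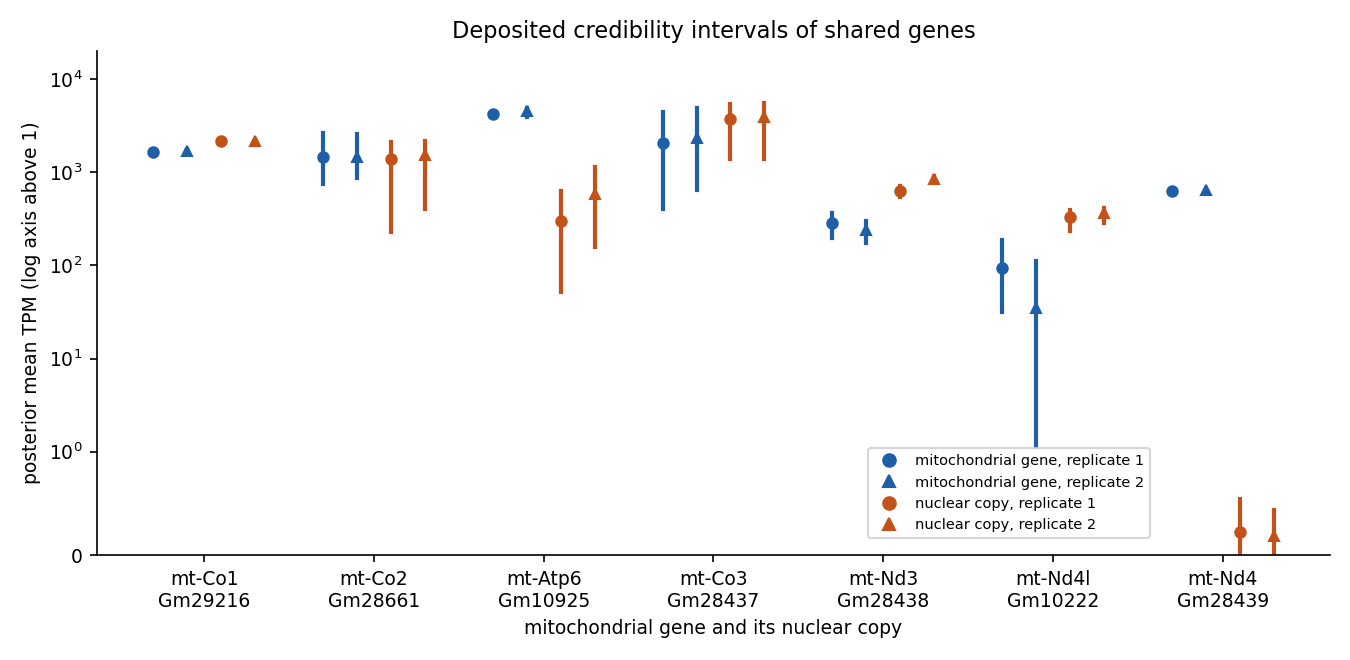
Posterior mean TPM (points; log axis above 1, linear below) and the authors' credibility intervals (bars), both rescaled without spike-ins, for the 7 mitochondrial genes with a near-identical copy (blue) and for the copy (orange), with circles for replicate 1 and triangles for replicate 2. For mt-Co3 and mt-Co2 the intervals of gene and copy overlap in both libraries, while those of mt-Co1 and Gm29216 are narrow and apart.

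The deposited tables carry the uncertainty of this division, in a posterior SD of each count and a credibility interval of TPM whose level the files do not state. For mt-Co3 the posterior SD was 175% of the count in replicate 1 and 125% in replicate 2, and for mt-Nd4l 85.8% and 238%. It was 85.3% and 52.9% for mt-Co2 and 16.5% and 13.3% for mt-Nd3. These 4 of the 15 genes passed 10% in both libraries, against 0.778% of the 11570 genes with 100 counts or more in both libraries. The 10% limit was chosen after the values were seen. For mt-Atp6 it was 4.10% and 6.74% and for mt-Co1 0.153% and 0.136%, and 7 genes without a near-identical copy had a posterior SD of 0 in both libraries.

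The interval of mt-Co3, rescaled without spike-ins, ran from 398 to 4401 TPM in replicate 1 and from 647 to 4814 TPM in replicate 2. That of its copy Gm28437 ran from 1368 to 5379.6 TPM and from 1365 to 5545 TPM. For mt-Nd4l it ran from 31.3 to 187 TPM in replicate 1 and from 1.12 to 112 TPM in replicate 2. The interval of mt-Nd1, which has no near-identical copy, was 1610.4 to 1641 TPM in replicate 1. It holds the gene's posterior mean TPM of 1626 and lies below its TPM of 1655, which is a separate estimate.

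Adding each copy's counts to its gene, and dividing by the effective length of the gene, gives a level that does not depend on the division. On this scale mt-Co3 was the highest mitochondrial RNA at 5885 and 6286 TPM (mean 6085 ± 283; SD, n = 2), 7.03 and 5.50 times its own row, and would be the 12th and 9th highest of all genes. It was followed by mt-Atp6 at 4567 and 5128 TPM, and the ratio of mt-Co3 to mt-Atp6 moved from 0.186 and 0.230 to 1.29 and 1.23. The level of mt-Co2 became 2881 and 3033 TPM (mean 2957 ± 108), within the range of mt-Atp8 and mt-Rnr2. That of mt-Co1 became 2287 and 2309 TPM (mean 2298 ± 16.1).

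Among complex I genes, mt-Nd3 became 916 and 1085 TPM (mean 1000.5 ± 120) and passed mt-Nd4, mt-Nd2 and mt-Rnr1. The level of mt-Nd4l became 424 and 402 TPM (mean 413 ± 15.4), 8.05 and 31.9 times its own row, and mt-Nd5 was then the lowest. The ratio of mt-Nd4l to mt-Nd4, which share a messenger RNA, moved from 0.0818 and 0.0194 to 0.658 and 0.617. It also depends on the length correction of the short mt-Nd4l, and was 0.473 and 0.443 with copies when counts were divided by full length. The span from the highest to the lowest messenger RNA was 85.3-fold and 394-fold over the rows alone and 23.9-fold and 26.1-fold with copies. The median of heavy-strand messenger RNAs over mt-Nd6 was then 5.61 and 5.20. If the nuclear copies are themselves transcribed, this scale counts their RNA as mitochondrial, which was not tested.

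By respiratory complex, the rows alone gave complex V 46.9% ± 1.31 of the TPM of the 13 messenger RNAs, complex I 21.8% ± 1.54, complex IV 21.7% ± 0.667 and complex III 9.59% ± 0.434 (SD, n = 2). With copies added, complex IV was the highest at 44.3% ± 0.948, followed by complex V at 30.9% ± 1.58, complex I at 18.5% ± 0.453 and complex III at 6.23% ± 0.176. Complexes I and IV were alike over the rows alone, and differed by more than their ranges with the copies.

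**Figure D3:**
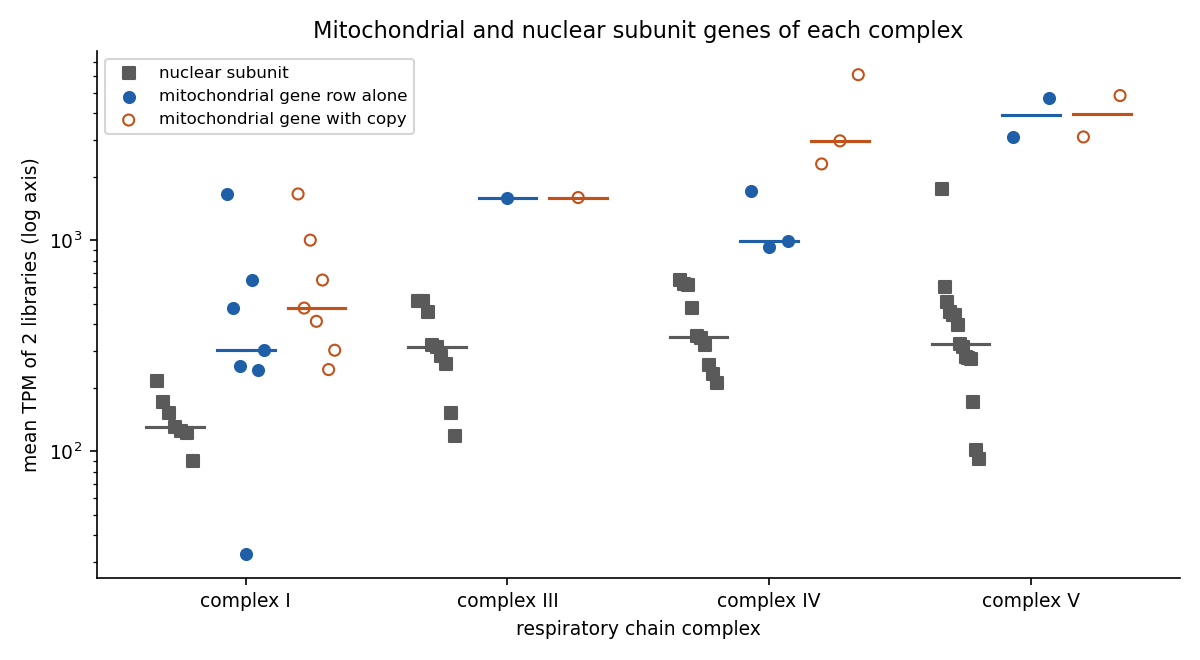
Mean TPM over the 2 libraries (log axis) of subunit genes of complexes I, III, IV and V. Grey squares are the listed nuclear genes, which for complex I are core subunits only. Blue filled points are mitochondrial gene rows, and orange open points are mitochondrial genes with their copies. Lines mark the median of each set. The mitochondrial genes of complexes III, IV and V lie above every listed nuclear gene of the same complex, and the lowest blue point of complex I is mt-Nd4l.

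The nuclear partners listed for these subunits had lower medians, and for complex I the list holds core subunits only. For complex V the mitochondrial median was 11.9 times the nuclear median of 15 genes in each library, and both mitochondrial genes exceeded every nuclear one, of which Atp5b, the catalytic beta subunit, was the highest at 1783 and 1724 TPM. The single mitochondrial gene of complex III exceeded each of 9 nuclear genes, at 5.41 and 5.53 times their median. For complex IV the fold was 2.63 and 3.01 over the rows alone and 9.06 and 7.99 with copies, and all 3 genes exceeded all 10 nuclear genes on either scale. The highest nuclear genes there were Cox6a1 at 651 and 647 TPM and Cox6b1 at 593 and 651 TPM. For complex I it was 2.15 and 2.49, and 6 of 7 mitochondrial genes exceeded all 7 nuclear core subunits, of which Ndufs7 was the highest at 218 and 211 TPM. With copies the fold was 3.44 and 3.92 and all 7 did so.

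For the difference between libraries, TPM + 1 of replicate 2 was divided by that of replicate 1 and given in log2, and genes past 2-fold were counted among those with at least 5 TPM in either library. With 1 library on each side there is no p-value. Of all 8781 genes so compared, 0.672% passed 2-fold, and 1 of the 15 mitochondrial genes did. This was mt-Nd4l, at 12.6 TPM in replicate 2 against 52.6 TPM in replicate 1, a log2 ratio of -1.98. Lower by that rule were 0.41% of all genes, and higher were 0.262% of all genes and none of the 15. Its count ratio was 0.249 with an exact 95% interval of 0.198 to 0.311, which does not cover the uncertain division of reads. With Gm10222 added, 2612 counts in replicate 1 and 3340.0 in replicate 2 gave a fold of 0.949 on the TPM scale, and none of the 15 passed 2-fold.

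The other rows differed by less. Their median log2 ratio over the 13 messenger RNAs was 0.06, beside -0.04 over all genes compared, whose interquartile range ran from -0.15 to 0.07. Of the 13, 10 were higher and 3 lower in replicate 2. The lower ones were mt-Nd4l, mt-Nd3 at -0.08 and mt-Nd5 at -0.03. The sign for mt-Nd3 was the opposite when Gm28438 was added, at 0.24, and under spike-in scaling, at 0.12. That for mt-Nd5 was the opposite under spike-in, TMM, median-of-ratios and total-count scaling, at 0.16, 0.04, 0.04 and 0.02. With copies 11 of 13 were higher, and the log2 ratios ran from -0.08 for mt-Nd4l to 0.31 for mt-Atp8, with a median of 0.07.

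**Figure D4:**
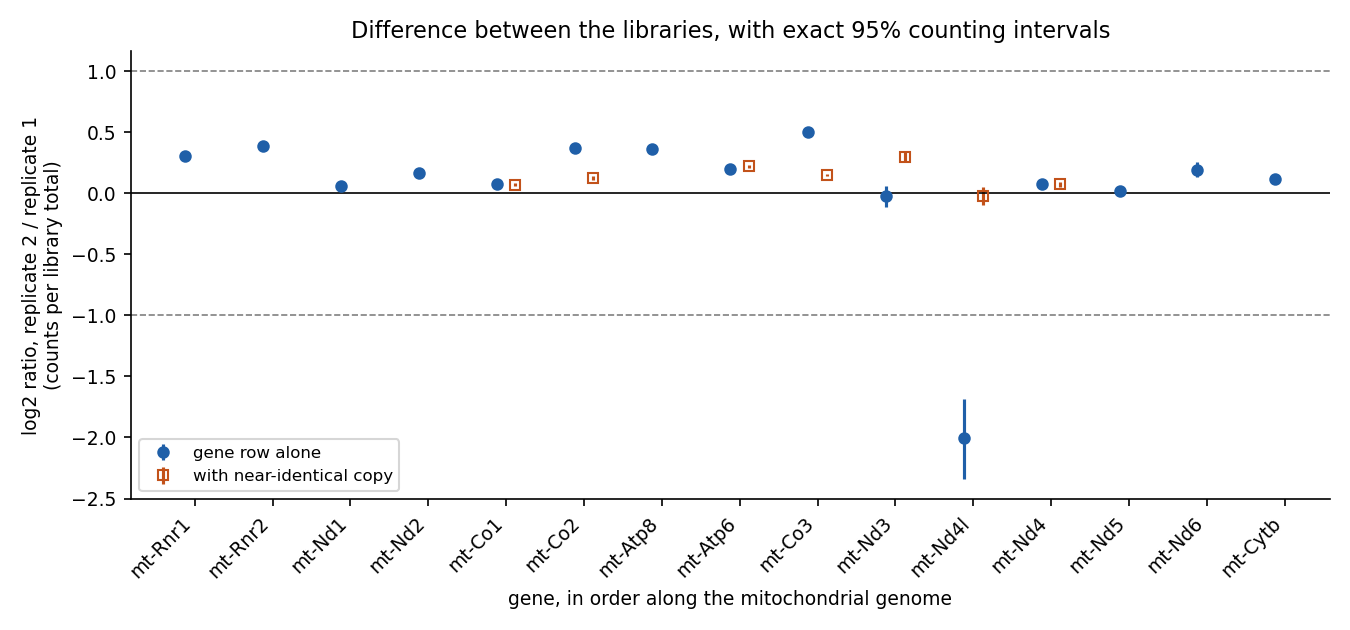
Log2 ratio of replicate 2 to replicate 1 in counts per library total for each gene in genome order, with exact 95% intervals for counting error, for the gene's own row (blue) and with its near-identical copy added (orange). Dashed lines mark 2-fold, and mt-Nd4l is beyond them by its own row and close to 0 with the copy added.

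Both ribosomal RNAs were higher in replicate 2, with folds on the TPM scale of 1.26 for mt-Rnr2 and 1.19 for mt-Rnr1. Their count ratios were 1.30 (1.29 to 1.31) and 1.24 (1.21 to 1.26), so the difference exceeded counting error, though the design gives no replicate spread to set it against. Summed, ribosomal RNA was 1.24 times and messenger RNA 1.11 times as high in replicate 2 as in replicate 1. The messenger RNAs nearest to the ribosomal genes did not share the fold: mt-Nd1 was at 1.00 and mt-Nd2 at 1.08. Among messenger RNAs without a near-identical copy, mt-Atp8 had the largest fold at 1.24, and its partner mt-Atp6 was at 1.11, or 1.12 with its copy.

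Nuclear genes that transcribe, process and translate mitochondrial RNA were looked up in chosen lists, which are not complete sets. The lists also hold nuclear respiratory subunits and assembly genes. The share of all genes that reached 1 TPM is not given here, so the count of detected symbols below has no background beside it. In 12 lists, all 128 symbols were matched and reached 1 TPM in both libraries, and none of the 117 that reached 5 TPM in either library passed 2-fold, a share near the 0.672% of all genes. The median log2 ratios below cover the genes that reached 5 TPM in either library. Among 8 transcription genes, Mrpl12 stood at 83.4 and 82.6 TPM, the packaging factor Tfam at 28.3 and 31.9 TPM, and the polymerase Polrmt at 16.7 and 14.7 TPM. The median log2 ratio of 5 of them was 0.02. Of the 10 genes of replication and maintenance, the single-strand binding protein Ssbp1 was highest at 40.3 and 47.1 TPM, while the polymerase Polg stood at 15.5 and 13.3 TPM, with a median log2 ratio of -0.10 over 9 genes.

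A further list holds 7 genes for cleavage of the precursor at transfer RNAs, and listing does not mean that each gene encodes a cutting enzyme. Among the 7, Hsd17b10, a subunit of mitochondrial RNase P, was the highest at 104.8 and 97.8 TPM. Elac2, which cuts the other end, stood at 13.1 and 13.3 TPM, and 1110008L16Rik was the lowest at 5.49 and 5.69 TPM. The median log2 ratio of the 7 was 0.02. Of the 12 genes of RNA stability, poly(A) tails and decay, Slirp, which with Lrpprc protects mitochondrial messenger RNAs, was the highest at 119.9 and 146 TPM, and the median over 11 of them was -0.03. Of the 10 genes listed with ribosomal RNA modification, not all of them modifying enzymes, Mterf3 was the highest at 16.5 and 19.8 TPM. Mrm1 was next by mean at 15.6 and 12.5 TPM, and the median of the 10 was 0.03.

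For translation, the elongation factor Tufm stood at 86.7 and 73.8 TPM, and 10 of the 11 factors had a median log2 ratio of -0.06. Of the 17 aminoacyl-tRNA synthetases, Lars2, for leucine, was the highest at 552 and 516 TPM, and the median log2 ratio of 14 of them was -0.02. The 12 genes of membrane insertion and complex assembly, among them Surf1 at 31.4 and 31.1 TPM, had a median of 0.02 over 10 genes and of -0.01 over all 12, and Sco2, a copper carrier for complex IV, was the lowest of them at 3.92 and 2.15 TPM. The listed nuclear subunits of complexes I, III, IV and V had median log2 ratios of -0.05, 0.01, 0.17 and 0.10.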

How the data were processed

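RNA of whole mouse fetal liver was measured in 2 libraries of a single group. Per the companion descriptions, the authors quantified each library on mm10 with annotation M4. No aligner or quantifier is named (not given in the sources used here). Expected counts as deposited are unscaled estimates per gene. Both kinds of deposited TPM, the plain and the posterior mean, are corrected for effective length and scaled to the library, and their total includes the spike-ins. The deposited posterior SD and credibility bounds are a signal in counts and in TPM.

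The 97 spike-in and 26248 numeric entries were left out and TPM was rescaled. Each mitochondrial gene had 1 transcript, with the same count in both tables. Annotation and sequence came from GENCODE M21 (GRCm38). Copies were sought with BLAST 2.17.0 (word size 20, e-value 1e-10) among M21 transcripts. Cep295, whose match is to an intron-retaining transcript, was not counted as a copy. Members and lists were chosen with earlier results of these data known. Named are all mitochondrial messenger and ribosomal RNAs, the 8 nuclear copies with the most counts, and of each list the 3 highest, the lowest and the most different between libraries, of which not every one is printed. No p-value is given, because each side of the comparison is 1 library. Alternatives were another pseudocount and filters, TMM scaling (edgeR 4.0.16), median-of-ratios, spike-in and total-count scaling, posterior mean TPM, full lengths, added copies and each library alone. Scripts ran in R 4.3.3 and in Python 3.11.15 with SciPy 1.17.1, pandas 2.3.3, matplotlib 3.10.9 and NumPy 2.4.6.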

Additional observations from a re-analysis of the deposited data

How the results depend on the processing

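Of 71 summary values recomputed with both libraries, 35 stayed the same by the rule for their kind. Shares and ratios had to stay within the SD of the libraries, and counts of genes within 1.5 times. The count of mitochondrial genes past 2-fold had to be equal, and the median log2 ratio had to stay within counting error. Single libraries are given in the report. With copies added, complex IV in place of complex V held the highest share. In expected counts the shares were 1.53% for all 37 genes, 1.10% for messenger and 0.436% for ribosomal RNAs, and 2.08% for all with copies added. With each copy's own TPM added, on the copy's own effective length, they were 3.07% for all and 2.72% for messenger RNAs. On the scale used above, with copy counts over the gene's effective length, messenger RNAs summed to 24567 TPM in replicate 1 and 26641 TPM in replicate 2. The values with copies below are on that scale. The median log2 ratio of messenger RNAs was 0.13 under TMM, 0.13 under median-of-ratios, 0.26 under spike-in and 0.11 under total-count scaling, 0.030 with posterior mean TPM and 0.074 with copies. Spike-in scaling moved the median of all genes from -0.04 to 0.15, so the messenger RNAs stayed about as far above it. Past 2-fold were 0 mitochondrial genes with copies, and 229 of all genes with no filter, 229 at 1 TPM and 33 at 10 TPM, against 59. With counts per full length, mt-Rnr2 was 4.31 times mt-Rnr1, ribosomal over messenger RNA was 0.235, mt-Atp8 over mt-Atp6 was 0.392, and complexes I, III, IV and V held 23.7%, 10.8%, 24.0% and 41.6%. With posterior mean TPM, ribosomal over messenger RNA was 0.189, the heavy-strand median over mt-Nd6 was 5.10, mt-Nd4l over mt-Nd4 was 0.101, and the complexes held 20.2%, 8.79%, 29.8% and 41.3%. With copies these were 0.134, 5.41, 0.637, and 18.5%, 6.23%, 44.3% and 30.9%. The cause of these moves was not tested. No paired analysis was possible because the study has a single group. The lowest count of a detected gene was 105, for mt-Nd4l in replicate 2.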
